A study of Homo sapiens with 16 samples.

Results

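Integrins are the receptors by which cells hold on to the extracellular matrix and, in some cases, to each other. Each receptor is a heterodimer of 1 alpha and 1 beta subunit, both spanning the membrane, and the pair decides which ligand is bound: ITGB1 pairs with most alpha subunits, ITGAV pairs with several beta subunits, and ITGB4 pairs with ITGA6 alone. The short tails inside the cell recruit adaptors such as talin, kindlin and vinculin, which couple the receptor to actin, whereas the ITGA6-ITGB4 pair is anchored to keratin filaments in hemidesmosomes. The mRNAs of 10 subunits, namely the alpha subunits ITGA2, ITGA3, ITGA4, ITGA5, ITGA6 and ITGAV and the beta subunits ITGB1, ITGB4, ITGB5 and ITGB6, are described here. They were taken by symbol from a list, without a threshold on any value, but the list was made with earlier results of these data known. Counts and medians of the 10 are therefore not those of an unselected set. All 10 were found among the 18227 genes of the deposited tables.

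RNA was sequenced from 16 libraries of A549 and H2023, 2 established cell lines from human lung tumours of the non-small-cell class. In each line wild-type cells were set beside cells labelled as a knockout of ZC3H12A, the gene of the RNase Regnase-1, and both were grown in 2 ways. Normal culture lasted 3 days and the stem-cell-enriched culture, here called Onco culture as in the titles, lasted 7 days, so culture type and time changed together. This gave 8 groups of 2 libraries: each line as wild type and knockout, and each of these in normal and Onco culture. The knockout libraries came from 1 clone per line (g2-3 in A549, g2-1 in H2023), so a trait of the clone and an effect of the edit cannot be told apart. Nothing in the labels says that the 2 libraries of a group were separate cultures, so the p-values measure the spread between these libraries, which may be technical.

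Values are TPM, a transcript abundance corrected for length and scaled to a fixed total in each library, which keeps no record of sequencing depth. A standard error is written SE. Mitochondrial genes took a larger part of TPM in Onco culture (19.5% to 25.6%) than in normal culture (10.3% to 18.7%). The targeted gene did not follow its label throughout. ZC3H12A stood at 30.72 and 34.88 TPM in A549 wild type and at 16.90 and 19.93 TPM in the A549 libraries labelled knockout in normal culture. In A549 Onco culture the wild-type values were 48.48 and 49.17 TPM and the others 60.17 and 55.60 TPM. In H2023 it was 26.78 and 29.85 against 41.48 and 41.54 TPM in normal culture, and 32.54 and 26.41 against 94.61 and 69.18 TPM in Onco culture. It was thus lower in the libraries labelled knockout in 1 comparison and higher in 3, and those libraries are called "labelled knockout" throughout. Epithelial markers (EPCAM, CDH1, CLDN4 and keratins) were measured for 7 of 7 genes and summed to between 2571 and 13033 TPM. KRT8, KRT18 and KRT7 had the highest values of these genes in every library, so the sums mostly follow these keratins. The lung lineage list had 1 of its 4 genes in the tables, NAPSA, with at most 6.03 TPM. Fibroblast markers (4 of 6 measured) summed to at most 4.01 TPM and the endothelial marker PECAM1 (1 of 4 measured) to at most 2.76 TPM. Leukocyte markers (3 of 6 measured: CD68, CD14 and LYZ) summed to between 31.43 and 245.1 TPM, with the highest values, 151.1 and 245.1 TPM, in A549 Onco culture wild type.

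The promoters of 3 alpha subunits are shown because ITGA4, ITGA5 and ITGAV were the members that rose together in the A549 libraries labelled knockout in normal culture. The sequences are from RefSeq on GRCh38.p14, which matched 8 of the 10 members. ITGA3 and ITGB4 are named only. Each runs 5′ to 3′ along its gene, from 250 bases before the RefSeq transcription start to 10 bases after it. ITGA4 is at chr2:181457136-181457395 on the + strand, ITGA5 at chr12:54419257-54419516 on the - strand and ITGAV at chr2:186589806-186590065 on the + strand. Capitals mark matches to the motifs searched.
ITGA4: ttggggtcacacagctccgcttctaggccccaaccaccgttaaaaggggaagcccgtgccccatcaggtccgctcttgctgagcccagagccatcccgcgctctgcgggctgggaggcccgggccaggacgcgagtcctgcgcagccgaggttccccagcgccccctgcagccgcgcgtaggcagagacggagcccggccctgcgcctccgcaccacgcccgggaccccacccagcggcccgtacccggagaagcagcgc
ITGA5: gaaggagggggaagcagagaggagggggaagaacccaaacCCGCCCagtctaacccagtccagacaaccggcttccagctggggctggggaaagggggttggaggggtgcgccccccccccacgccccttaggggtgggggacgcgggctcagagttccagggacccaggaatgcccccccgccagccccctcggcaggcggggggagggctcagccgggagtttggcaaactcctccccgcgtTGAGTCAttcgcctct
ITGAV: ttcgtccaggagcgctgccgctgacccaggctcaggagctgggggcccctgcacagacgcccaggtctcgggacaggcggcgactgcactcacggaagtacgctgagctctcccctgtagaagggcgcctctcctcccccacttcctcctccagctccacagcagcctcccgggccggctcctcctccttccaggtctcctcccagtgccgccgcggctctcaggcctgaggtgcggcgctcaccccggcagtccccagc
Both strands were searched for 5 motifs: the AP-1 site TGANTCA with C or G at N, the GC box GGGCGG, the Ets site CCGGAAG, the E-box CAGGTG and CCAAT. The ITGA5 window held 1 AP-1 match, starting 6 bases before the transcription start, and 1 GC box 210 bases before it. The ITGA4 and ITGAV windows held no match to any of the 5 motifs. Of the 35116 RefSeq windows of the same length, 4.44% held the AP-1 site, 43.1% the GC box, 9.12% the Ets site, 18.1% the E-box and 32.7% CCAAT. A match is a description of the letters only.

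ITGB1, the common partner, was the most abundant of the 10 mRNAs in every library, at 519.55 to 1370.08 TPM (median 948.0 TPM). ITGB5, a partner of ITGAV in vitronectin receptors, ranged from 159.45 to 395.66 TPM and stood above ITGB4 except in 1 library, replicate 2 of A549 wild type in Onco culture. ITGB4, the hemidesmosome subunit, ranged from 35.65 to 168.47 TPM. ITGB6, which pairs with ITGAV in a receptor that activates latent TGF-beta in epithelia, reached 1 TPM in 2 of 16 libraries and stayed at or below 1.42 TPM. ITGB6 shares 966 exonic bases with the transcript AC092153.1 on its own strand, so its low value may hold reads of either. Among the alpha subunits, ITGA3, a laminin receptor subunit, led in 15 of 16 libraries with 77.57 to 304.47 TPM. ITGAV, the subunit of the receptors for vitronectin and other RGD ligands, ranged from 38.10 to 147.91 TPM. ITGA5, the fibronectin receptor subunit, ranged from 15.12 to 54.24 TPM. ITGA6, a second laminin receptor subunit, ranged from 11.93 to 75.81 TPM, and ITGA2, a collagen receptor subunit, from 4.89 to 31.37 TPM. ITGA4, best known from leukocytes, where its receptor binds VCAM1 and fibronectin, ranged from 0.00 to 14.82 TPM, with 8 of 16 libraries at 1 TPM or more. On the log2(TPM + 1) scale its group means spanned 3.65, the widest span of the 10.

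**Figure D1:**
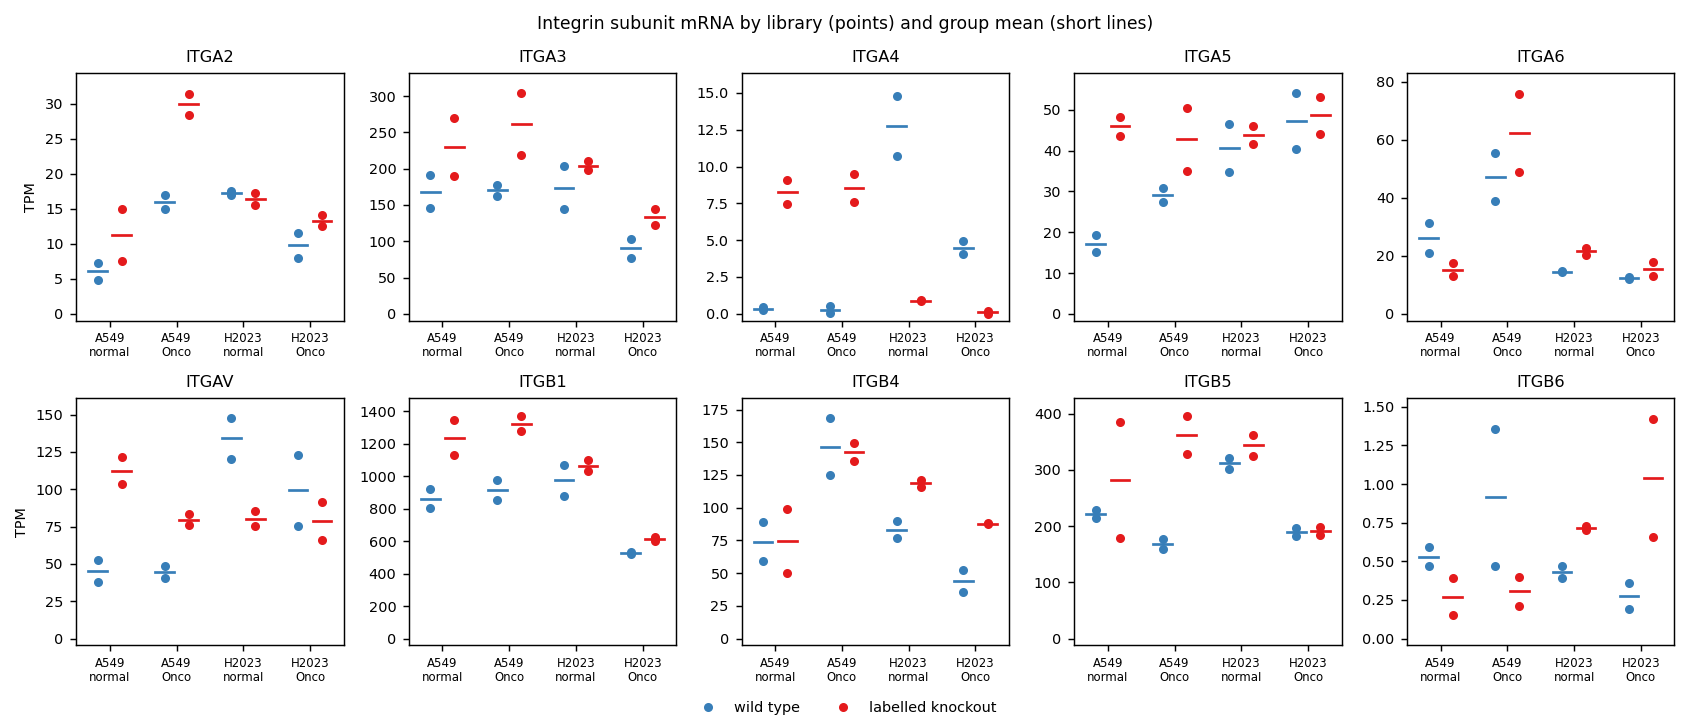
TPM of each integrin subunit (vertical axis, linear, with its own range in each panel) in the 8 groups. Each point is 1 library, blue for wild type and red for labelled knockout, and a short line is the mean of 2 libraries. ITGA4 is near 0 in A549 wild type and at 7.43 to 9.51 TPM in A549 labelled knockout, with the reverse order in H2023.

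The summed alpha mRNA was smaller than the ITGB1 mRNA alone in all 16 libraries. ITGB1 was 1.71 to 3.57 times the sum of the 6 alpha subunits, with a median of 2.84. The make-up of the alpha pool differed by group. ITGA3 held 63.4% and 64.7% of it in A549 wild type in normal culture and 33.8% and 34.8% in H2023 wild type in Onco culture, where ITGAV was at 33.9% and 40.5%. Those 2 H2023 wild-type libraries had the lowest ITGA3 shares of all. ITGA4 held at most 3.33% in any library. The ratio of ITGB4 to its only partner ITGA6 ran from 1.98 to 6.73, and ITGB5 to ITGAV from 1.48 to 5.61.

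**Figure D2:**
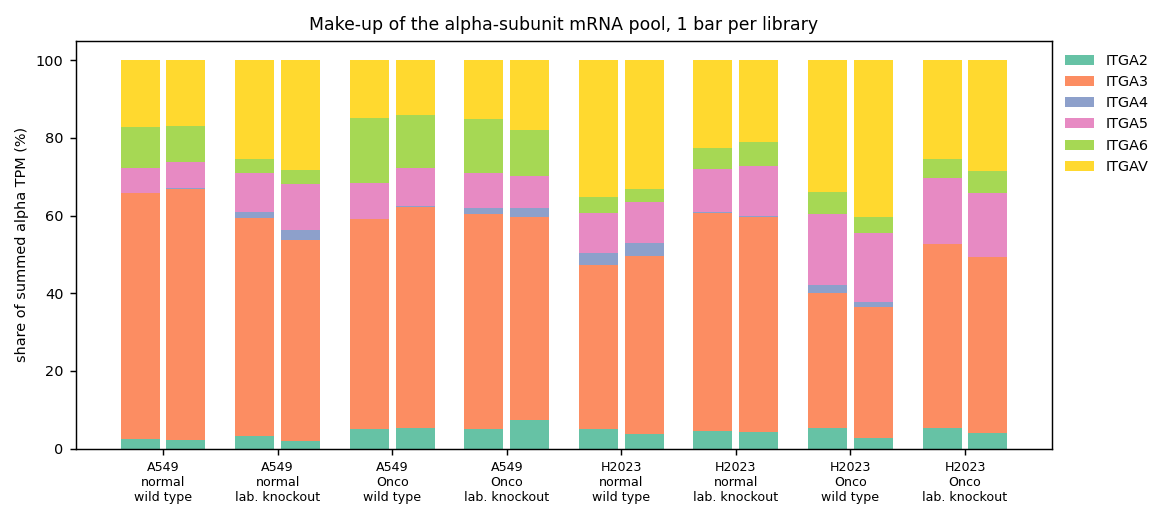
Share of each alpha subunit in the summed TPM of the 6 alpha subunits (vertical axis, percent), with 1 stacked bar per library and 2 bars per group. ITGA3 takes between 33.8% and 64.7% of the pool, and ITGA4 takes at most 3.33%.

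In A549 grown in normal culture, 3 of the 10 subunits rose in the libraries labelled knockout and none fell. All 3 were alpha subunits: ITGA4, ITGA5 and ITGAV. The test was limma on log2(TPM + 1) with Benjamini-Hochberg adjustment over all genes at 0.05, which called 10.8% of genes in this comparison, 4.54% as higher and 6.28% as lower. In the authors' deposited table an adjusted p of 0.05 was passed by 5 higher subunits (ITGA2, ITGA4, ITGA5, ITGAV and ITGB1) and by ITGA6 as lower, where 11.2% and 10.9% of the genes tested there did so. Both libraries lay above both wild-type libraries for 5 subunits and below both for 2, while 27.2% and 34.6% of all genes did so. The median log2 fold change of the 10 subunits was 0.48, against -0.03 over all genes.

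ITGA4 measured 0.45 and 0.24 TPM in wild type, and the libraries labelled knockout had 7.43 and 9.07 TPM. The groups did not overlap, and ITGA4 went from barely listed to a level of several TPM. Its limma estimate on the log2 scale was 2.78 (SE 0.21, adjusted p = 0.00614). The log2(TPM + 1) scale understates the change of so low a gene. The authors' deposited table gives a log2 fold change of 4.98 (adjusted p 1.10e-46).

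ITGA5 measured 19.32 and 15.12 TPM in wild type but 48.25 and 43.66 TPM in labelled knockout, a ratio of means of 2.67. Its limma estimate on the log2 scale was 1.37 (SE 0.15, adjusted p = 0.0127). ITGAV measured 52.28 and 38.10 TPM against 121.45 and 103.48 TPM, a ratio of 2.49. Its limma estimate on the log2 scale was 1.31 (SE 0.18, adjusted p = 0.0179). For both genes the groups lay well apart. ITGB1, the partner of ITGA4 and ITGA5, was at 920.09 and 802.65 TPM in wild type and 1348.39 and 1128.87 TPM in labelled knockout. The ITGB1 groups did not overlap, but the log2 fold change of 0.52 (SE 0.16) did not pass limma (adjusted p = 0.0965).

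ITGA6 and ITGB6 did not share this direction. ITGA6 measured 31.41 and 20.93 TPM in wild type and 17.39 and 13.09 TPM in labelled knockout, with a log2 fold change of -0.73 (SE 0.24, limma adjusted p = 0.111). The authors' deposited table gives -0.69 for ITGA6 (adjusted p 0.00691). ITGB6 measured 0.59 and 0.47 TPM against 0.15 and 0.39 TPM, with a log2 fold change of -0.27 (limma adjusted p = 0.248). The remaining 4 did not pass limma. ITGA2 measured 7.19 and 4.89 TPM against 15.02 and 7.59 TPM (adjusted p = 0.210). ITGA3, at 191.37 and 145.46 against 269.65 and 189.34 TPM, overlapped between the groups (adjusted p = 0.235). ITGB4 and ITGB5 also overlapped, and in both the labelled-knockout libraries lay far apart, at 98.72 and 50.22 TPM for ITGB4 and 384.67 and 179.57 TPM for ITGB5. Epithelial markers summed to 9175 and 9347 TPM in these wild-type libraries and to 2571 and 5010 TPM in the labelled-knockout ones. Their part in the integrin result was not tested. With any 1 of the 4 libraries left out, the log2 fold change ranged from 2.65 to 2.91 for ITGA4, 1.21 to 1.54 for ITGA5 and 1.09 to 1.53 for ITGAV. Such a fit leaves 1 library in a group. The calls were lost in these fits, for the subunits as for all other genes.

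In A549 grown in Onco culture, 4 of the 10 subunits rose in the libraries labelled knockout and none fell: ITGA2, ITGA4, ITGAV and ITGB5. Limma called 13.2% of genes in this comparison, 6.04% as higher and 7.2% as lower. The authors' deposited table has 6 subunits higher (ITGA2, ITGA3, ITGA4, ITGAV, ITGB1 and ITGB5) and none lower, where 9.29% and 11.4% of genes were called in the respective direction. Both libraries lay above both wild-type libraries for 7 subunits and below both for 1, against 32.7% and 27.8% of all genes. The median log2 fold change of the 10 subunits was 0.56, against 0.03 over all genes.

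ITGA4 measured 0.03 and 0.54 TPM in wild type and 7.62 and 9.51 TPM in labelled knockout, nearly the levels of normal culture. Its limma estimate on the log2 scale was 2.92 (SE 0.27, adjusted p = 0.00516). ITGAV measured 48.71 and 40.48 TPM against 83.36 and 75.87 TPM, with a log2 fold change of 0.83 (SE 0.13, limma adjusted p = 0.0187). Neither gene overlapped between the groups.

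ITGB5 measured 177.83 and 159.45 TPM in wild type and 327.69 and 395.66 TPM in labelled knockout. These libraries thus held 2.14 times as much mRNA of this ITGAV partner, with a log2 fold change of 1.09 (SE 0.13, limma adjusted p = 0.00969). ITGA2 measured 16.98 and 14.90 TPM against 28.42 and 31.37 TPM, with a log2 fold change of 0.87 (SE 0.13, limma adjusted p = 0.0181). ITGB1 measured 975.99 and 857.23 TPM against 1370.08 and 1278.00 TPM, without overlap, and missed the threshold (log2 fold change 0.53, limma adjusted p = 0.0548).

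The laminin receptor subunits did not pass. ITGA3 was at 177.90 and 162.74 TPM in wild type and 304.47 and 218.35 TPM in labelled knockout (limma adjusted p = 0.0886). ITGA6 overlapped, at 55.43 and 38.93 against 75.81 and 49.02 TPM, as did ITGB4, at 124.82 and 168.47 against 149.83 and 135.78 TPM. ITGA5 measured 30.74 and 27.51 TPM against 50.46 and 35.05 TPM, with a log2 fold change of 0.52 (limma adjusted p = 0.148). ITGB6 measured 1.36 and 0.47 against 0.21 and 0.40 TPM. Leukocyte markers summed to 58.63 and 79.11 TPM in the labelled-knockout libraries, below the wild-type sums given above. Their part in the result was not tested. Without any 1 of the 4 libraries, the log2 fold change ranged from 2.63 to 3.21 for ITGA4 and 0.70 to 0.96 for ITGAV. It ranged from 0.96 to 1.23 for ITGB5 and 0.78 to 0.96 for ITGA2. The calls were lost in these fits, for the subunits as for nearly all other genes.

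**Figure D3:**
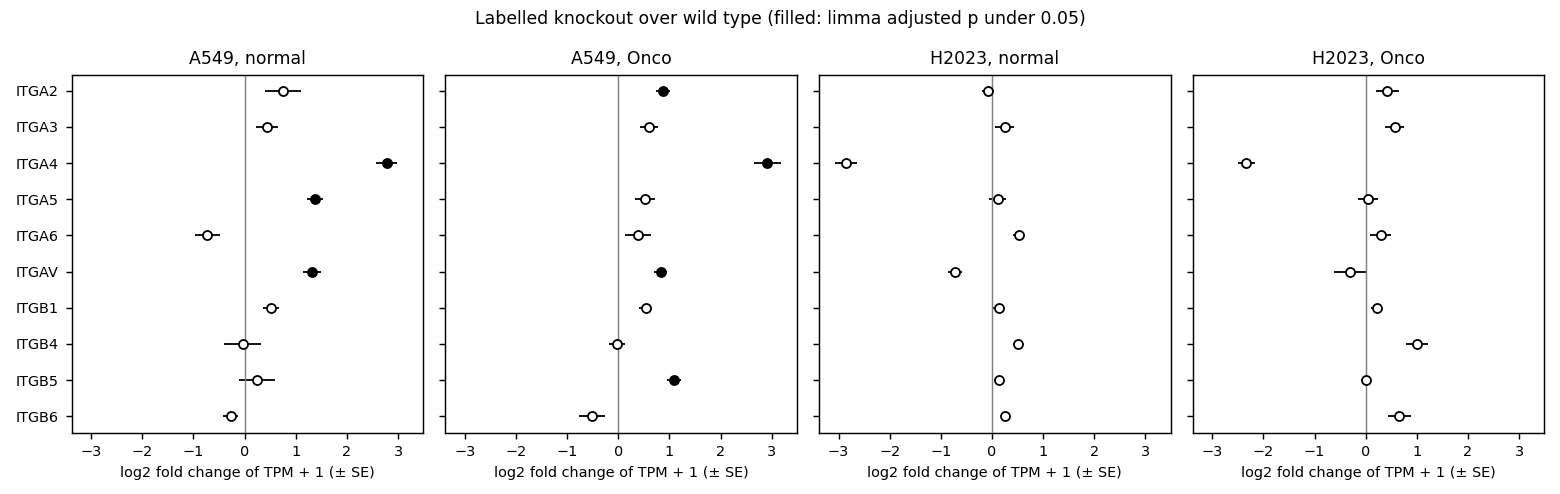
Log2 fold change of TPM + 1 of labelled knockout over wild type (horizontal axis, shared by the panels) for the 10 subunits in each line and culture. Points are limma estimates from 2 against 2 libraries, bars are ± 1 standard error, and filled points passed the adjusted p of 0.05. ITGA4 is at 2.78 and 2.92 in A549 and at -2.85 and -2.33 in H2023.

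In H2023 limma called no gene in either culture, and so 0 of 10 subunits (0.0% of all genes in both). At an unadjusted p under 0.05 it counted 3 subunits higher and 2 lower in normal culture, where 18.2% of genes passed, and 3 higher and 1 lower in Onco culture, where 15.5% passed. The authors' deposited table for normal culture has ITGA6 and ITGB4 higher and ITGA4 and ITGAV lower, where 3.84% of genes were called higher and 6.97% lower. Their deposited table for Onco culture has ITGB4 higher and ITGA4 lower, where 2.22% were called higher and 2.85% lower. The libraries did not overlap for 4 subunits higher and 2 lower in normal culture, and for 6 higher and 1 lower in Onco culture. Among all genes the shares were 26.1% higher and 24.5% lower, then 28.6% higher and 18.9% lower. Median log2 fold changes of the 10 subunits were 0.14 and 0.26, against 0.01 and 0.06 over all genes.

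ITGA4 had the opposite order to A549. In normal culture it measured 10.69 and 14.82 TPM in wild type and 0.84 and 0.93 TPM in labelled knockout. In Onco culture it measured 4.92 and 4.06 TPM against 0.00 and 0.18 TPM. All 4 labelled-knockout libraries were below 1 TPM and all 4 wild-type libraries above 4 TPM. The limma log2 fold changes were -2.85 (SE 0.22, adjusted p = 0.110) and -2.33 (SE 0.17, adjusted p = 0.208). For normal culture, limma called ITGA4 when only genes with a mean of at least 1 TPM were tested (adjusted p = 0.00310) and when all 16 libraries were fitted together (adjusted p = 7.91e-05). With all 16 libraries it was also called in Onco culture (adjusted p = 0.000311). The authors' deposited tables give -3.64 (adjusted p 0.000371) and -6.15 (adjusted p 5.40e-19).

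ITGAV was at 120.50 and 147.91 TPM in wild type and 85.09 and 75.43 TPM in labelled knockout in normal culture, without overlap. Its limma estimate on the log2 scale was -0.73 (SE 0.13, adjusted p = 0.157), and the authors' deposited table gives -0.75 (adjusted p 3.63e-07). In Onco culture ITGAV overlapped, at 75.56 and 123.18 against 66.12 and 91.13 TPM. ITGB4 was above wild type in both cultures: 90.11 and 76.48 against 116.10 and 121.29 TPM, then 52.51 and 35.65 against 88.02 and 87.61 TPM. Its limma log2 fold changes were 0.51 (adjusted p = 0.170) and 1.00 (adjusted p = 0.233). In the authors' deposited tables they are 0.46 (adjusted p 0.00539) and 0.93 (adjusted p 0.000699). Epithelial markers summed to 8750 and 9398 TPM in wild type and 12327 and 13033 TPM in labelled knockout in normal culture. In Onco culture the sums were 4331 and 4570 against 7768 and 8275 TPM. By gene, 2 of the 7 were higher without overlap in normal culture and 3 (EPCAM, KRT19 and CLDN4) lower. In Onco culture 4 were higher and 1 (CLDN4) lower. The all-gene shares without overlap are given above. The part of these markers in the ITGB4 values was not tested. ITGA6, the partner of ITGB4, was at 14.45 and 14.59 TPM in wild type and 20.33 and 22.66 TPM in labelled knockout in normal culture, with a limma log2 fold change of 0.53 (adjusted p = 0.173). In Onco culture ITGA6 was at 12.75 and 11.93 against 13.07 and 18.01 TPM. ITGA3 overlapped in normal culture, and in Onco culture was at 77.57 and 103.04 against 122.75 and 144.95 TPM (log2 fold change 0.57, limma adjusted p = 0.299). ITGB1 in Onco culture was at 535.21 and 519.55 against 625.08 and 602.41 TPM (0.22, limma adjusted p = 0.405). ITGA2 was at 11.56 and 8.02 against 14.05 and 12.48 TPM there (0.42, limma adjusted p = 0.443). ITGA5 overlapped in both cultures, with 34.90 to 54.24 TPM over the 8 H2023 libraries. ITGB5 overlapped in Onco culture, and ITGB6 ranged from 0.19 to 1.42 TPM.

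Whether the difference between labelled knockout and wild type itself differed between lines or cultures was tested on the authors' fold changes, as a difference over its standard error with adjustment over all genes. Between lines in normal culture, 5 subunits differed, where 15.3% of all genes did. ITGA4 differed by -8.62 on the log2 scale (H2023 minus A549, 95% interval -10.38 to -6.86), ITGAV by -2.23 (-2.61 to -1.85) and ITGA5 by -1.42 (-1.87 to -0.97). ITGA2 differed by -1.04 (-1.65 to -0.44), and ITGA6 by 1.21 (0.71 to 1.71) in the other direction. Between lines in Onco culture 4 subunits differed, where 12.9% of genes did: ITGA4 by -11.13 (-13.61 to -8.64), ITGAV by -1.14 (-1.85 to -0.43), ITGB5 by -0.93 (-1.36 to -0.49) and ITGB4 by 1.04 (0.47 to 1.62). Between the cultures of A549, 3 subunits differed, where 8.31% of genes did. ITGA5 differed by -1.08 (Onco minus normal, -1.63 to -0.54), ITGAV by -0.69 (-1.11 to -0.26) and ITGA6 by 1.03 (0.39 to 1.68). Between the cultures of H2023 none of the 10 passed, where 0.39% of genes did. A limma interaction over the 8 libraries called 4 of the 5 between lines in normal culture, without ITGA2 (adjusted p = 0.221), and 2 of the 4 in Onco culture, without ITGAV (adjusted p = 0.0863) and ITGB4 (adjusted p = 0.0677). Between the cultures of A549 it called 0 of the 3, and with a replicate block 2, ITGA5 and ITGA6. Of all 18227 genes, the limma interaction called 2241 between lines in normal culture and 1795 in Onco culture. Between the cultures of A549 it called 1212 genes, and 1264 with the block. Each pair of comparisons here used separate wild-type libraries.

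Of the 10 genes, 4 lie on chromosome 2 beyond 90 Mb: ITGB6 (160099666 to 160200313, - strand), ITGA6 (172427354 to 172506282, + strand), ITGA4 (181457202 to 181536187, + strand) and ITGAV (186590065 to 186680901, + strand), in GRCh38 with GENCODE release 29. After the values had been seen, the genes around them were examined, taking genes with a mean of at least 1 TPM. The 560 genes of chromosome 2 that start from 90 Mb on, members left out, lay above the whole in A549, with medians of 0.34 on the log2 scale in normal culture and 0.41 in Onco culture. In H2023 their medians were -0.27 and -0.25. Over all 14814 such genes the medians were -0.06 and 0.04 in A549 and 0.02 and 0.07 in H2023.

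Of these 560 genes, 79.6% and 77.9% were higher in labelled knockout in the A549 cultures, against 44.1% and 54.5% of all genes. In H2023 15.9% and 21.4% were higher, against 52.8% and 59.1%. Both labelled-knockout libraries of every comparison showed it, with medians of 0.33 and 0.35, 0.40 and 0.45, -0.25 and -0.29, and -0.25 and -0.26 against the wild-type mean. The 383 genes below 90 Mb had medians of -0.08 and 0.03 in A549 and -0.16 and -0.14 in H2023. Within 5 Mb of ITGA4, 23 and 21 of 27 genes were higher in the A549 cultures and 4 and 6 of 27 in the H2023 cultures. The medians of those 27 were 0.39, 0.34, -0.15 and -0.17. Within 5 Mb of ITGAV the medians of 31 genes were 0.26, 0.43, -0.36 and -0.30.

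ITGA4 and ITGAV thus had the sign of their neighbours in all 4 comparisons, and in size ITGA4 was far beyond them in each. ITGA6 had the opposite sign to the median of its 51 neighbours in A549 normal culture (-0.73 against 0.24) and in both H2023 cultures (0.53 against -0.37 and 0.29 against -0.37). ITGB6 had the opposite sign to its 26 neighbours in all 4. The part of the regional shift in the results for these genes was not tested. ITGA5 on chromosome 12, ITGB5 on chromosome 3 and ITGA2 on chromosome 5 lie elsewhere. Medians within 5 Mb are given in the order A549 normal, A549 Onco, H2023 normal and H2023 Onco. Around ITGA5 (168 genes) they were -0.05, -0.03, 0.16 and 0.19. Around ITGB5 (75 genes) they were -0.04, 0.01, 0.05 and 0.10, and around ITGA2 (25 genes) -0.23, -0.15, 0.02 and 0.18. The part of these shifts in the results was not tested either.

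**Figure D4:**
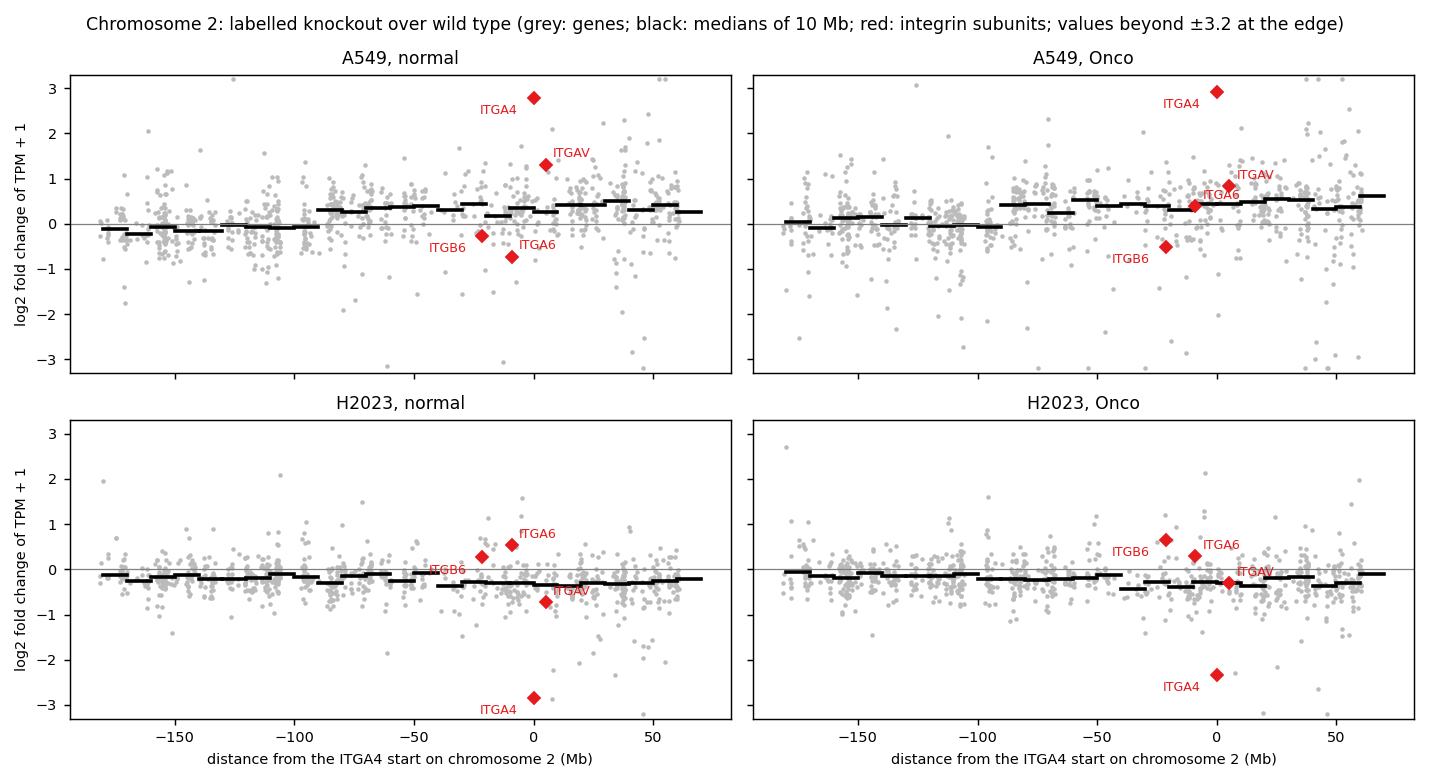
Log2 fold change of labelled knockout over wild type (vertical axis) along chromosome 2, as distance from the ITGA4 start (horizontal axis, Mb), for each line and culture. Grey points are genes with a mean of at least 1 TPM, drawn at the edge where beyond the axis, black lines are medians of 10 Mb and red diamonds are the integrin subunits. On the right side of each panel the black lines sit above 0 in A549 and below 0 in H2023, with ITGA4 far outside them. In H2023 the black lines on the left side sit below 0 as well.

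The culture contrast asked how the subunits differed between 7 days of Onco and 3 days of normal culture, with limma over the 8 libraries of a line. TPM is scaled within each library, so levels were set across tables. In A549 wild type, 4 subunits were higher in the Onco culture and none lower, with 40.6% of genes called, 19.0% as higher and 21.6% as lower. ITGA2 went from 7.19 and 4.89 to 16.98 and 14.90 TPM (log2 fold change 1.28, SE 0.29, adjusted p = 0.00861). ITGA6 went from 31.41 and 20.93 to 55.43 and 38.93 TPM (0.83, SE 0.28, adjusted p = 0.0441 by limma). Its partner ITGB4 went from 88.94 and 58.92 to 124.82 and 168.47 TPM (0.99, SE 0.31, adjusted p = 0.0359 by limma). ITGA5 went from 19.32 and 15.12 to 30.74 and 27.51 TPM (0.73, SE 0.19, adjusted p = 0.0154 by limma). None of the 4 overlapped between the cultures. ITGB5 was lower without overlap, from 229.35 and 213.79 to 177.83 and 159.45 TPM, and was not called. The share of all genes without overlap was not computed for the culture contrasts. With 1 wild-type library left out, the log2 fold change ranged from 1.046 to 1.521 for ITGA2 and 0.57 to 0.90 for ITGA5. It ranged from 0.55 to 1.11 for ITGA6 and 0.70 to 1.29 for ITGB4. Such a fit leaves 1 library in a group, and each of the 4 lost its limma call in some of these fits. Leukocyte markers also differed between these groups, at 45.49 and 58.92 TPM in normal and 151.1 and 245.1 TPM in Onco culture. Their part in the result was not tested.

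In the A549 libraries labelled knockout, ITGA2 and ITGA6 were higher in Onco culture, with 20.8% of genes called, 10.9% as higher and 9.87% as lower. ITGA6 went from 17.39 and 13.09 to 75.81 and 49.02 TPM, a ratio of means of 4.10 (log2 fold change 1.95, SE 0.28, limma adjusted p = 0.00244). ITGA2 went from 15.02 and 7.59 to 28.42 and 31.37 TPM (1.40, SE 0.29, limma adjusted p = 0.0118). ITGB4 had a log2 fold change of 1.01 and missed the threshold (limma adjusted p = 0.0566). ITGAV went the other way without overlap, from 121.45 and 103.48 to 83.36 and 75.87 TPM, and was not called by limma. Leaving out either labelled-knockout library of the Onco culture left 1 of the 10 called, and leaving out replicate 1 of the normal culture gave 4. Here the ITGA5 level, at 48.25 and 43.66 then 50.46 and 35.05 TPM, overlapped between the cultures.

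In H2023 the direction was the reverse. In wild type 6 subunits were lower in Onco culture and none higher, with 21.4% of genes called, 3.96% as higher and 17.4% as lower: ITGA2, ITGA3, ITGA4, ITGB1, ITGB4 and ITGB5. ITGB1 went from 879.83 and 1071.75 to 535.21 and 519.55 TPM (log2 fold change -0.88, SE 0.12, limma adjusted p = 0.00624). ITGB5 went from 301.93 and 321.83 to 196.34 and 182.81 TPM (-0.72, SE 0.09, limma adjusted p = 0.00565). ITGA3 went from 144.35 and 203.55 to 77.57 and 103.04 TPM (-0.93, SE 0.20, limma adjusted p = 0.0232). All 6 were without overlap, as were 8 of the 10 subunits in all, each of them lower. The share of all genes without overlap was not computed for this contrast. ITGA4 had a log2 fold change of -1.31 (limma adjusted p = 0.00885), ITGB4 of -0.92 (adjusted p = 0.0166) and ITGA2 of -0.78 (adjusted p = 0.0282). All genes together shifted by a median of -0.18 in this contrast, and the median of the 10 subunits was -0.75. With median centring ITGA2 and ITGA3 missed the threshold (limma adjusted p = 0.0815 and 0.0617). ITGA4 missed it with a pseudocount of 0.1 TPM (limma adjusted p = 0.0842). ITGB5 missed it with all 16 libraries fitted together (limma adjusted p = 0.0502). After the mitochondrial genes were taken out of the TPM, 3 of the 6 were called. ITGA2, ITGA3 and ITGB4 kept their sign at -0.56, -0.69 and -0.69 but missed the threshold (limma adjusted p = 0.0922, 0.0862 and 0.0525). Without replicate 2 of the normal culture limma called 3, and without replicate 1 it called 4. Epithelial markers summed to 8750 and 9398 TPM in normal and 4331 and 4570 TPM in Onco culture in these wild-type libraries. EPCAM, CLDN4 and KRT19 were higher in Onco culture, and limma called 1 of the 7 higher and 3 lower. The part of these markers in the result was not tested.

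In the H2023 libraries labelled knockout, 3 subunits were lower and none higher, with 26.9% of genes called, 7.68% as higher and 19.2% as lower. ITGB1 went from 1101.01 and 1031.09 to 625.08 and 602.41 TPM (log2 fold change -0.80, SE 0.12, limma adjusted p = 0.00549). ITGB5 went from 362.88 and 324.76 to 197.60 and 184.34 TPM (-0.84, SE 0.09, limma adjusted p = 0.00210). ITGA4 went from 0.84 and 0.93 to 0.00 and 0.18 TPM (-0.79, limma adjusted p = 0.0327). That ITGA4 call rests on values below 1 TPM and was lost under 5 of 10 alternatives, namely median centring (limma adjusted p = 0.0708) and leaving out any 1 of the 4 libraries. The sums of the epithelial markers also differed here, at 12327 and 13033 TPM in normal and 7768 and 8275 TPM in Onco culture. EPCAM, CLDN4 and KRT19 were higher in Onco culture, and limma called 2 of the 7 higher and 3 lower. The part of these markers was not tested. All genes shifted by a median of -0.12 here. ITGA5 and ITGAV overlapped between the cultures in both H2023 genotypes. The log2 fold changes of ITGA5 were 0.21 in wild type and 0.15 in labelled knockout.

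**Figure D5:**
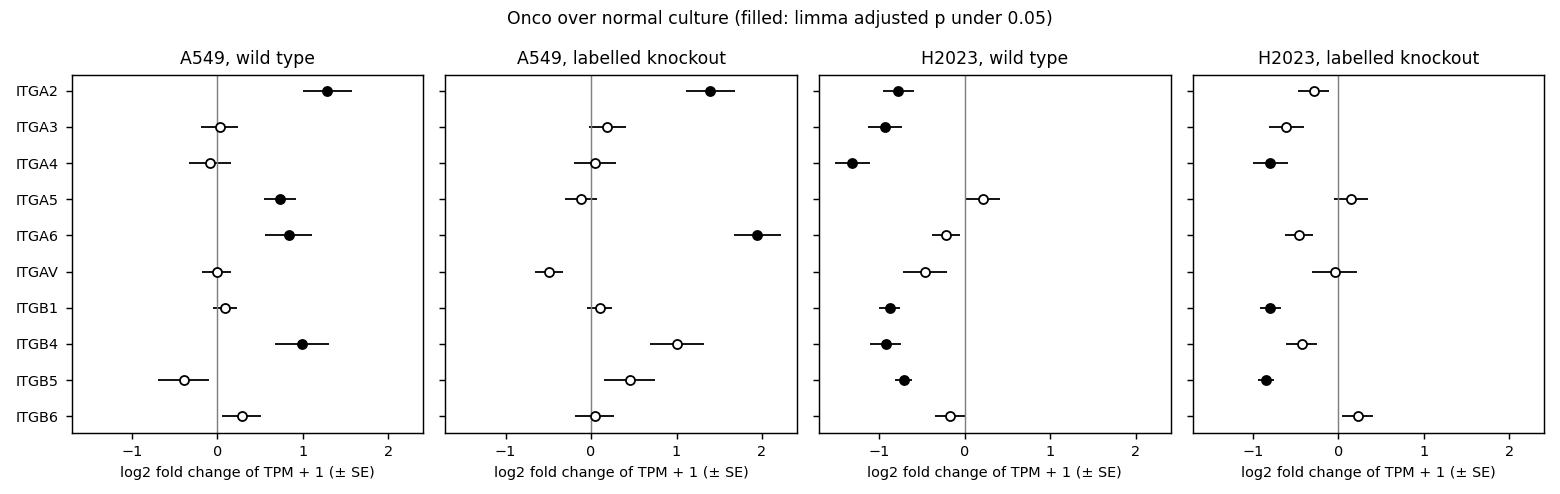
Log2 fold change of TPM + 1 of Onco over normal culture (horizontal axis, shared by the panels) for the 10 subunits in each line and genotype. Points are limma estimates, bars are ± 1 standard error, and filled points passed the adjusted p of 0.05. Filled points lie right of 0 in A549 and left of 0 in H2023.

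Wild-type cells of the 2 lines were compared within each culture, with limma over the 8 wild-type libraries. In normal culture 5 subunits were higher in H2023 and 1 lower, with 35.4% of genes called, 22.8% higher and 12.6% lower. ITGA4 had the largest log2 difference of the 10, at 3.34 (SE 0.26, adjusted p = 0.000194), followed by ITGAV at 1.56 (adjusted p = 0.00296), ITGA2 at 1.39 (adjusted p = 0.00299), ITGA5 at 1.19 (adjusted p = 0.00386) and ITGB5 at 0.49 (adjusted p = 0.0100). ITGA6 was lower in H2023, by -0.78 (adjusted p = 0.0299). All genes shifted by a median of 0.12 in this contrast, and with median centring ITGB5 missed the threshold (0.27, limma adjusted p = 0.0647). It also missed it with all 16 libraries fitted together (limma adjusted p = 0.135). With 1 library left out, the ITGA6 estimate ranged from -1.06 to -0.50 and its call was not always kept. In Onco culture 3 were higher in H2023 and 5 lower, with 42.3% of genes called, 20.3% higher and 22.0% lower. ITGA4, ITGAV and ITGA5 were again higher, by 2.12, 1.10 and 0.67. ITGA6 and ITGB4, which form the hemidesmosome receptor, had log2 differences of -1.83 and -1.72 (adjusted p = 0.000777 and 0.00170). ITGA3, ITGB1 and ITGA2 were lower as well, at -0.92, -0.79 and -0.67. The ITGA2 call in Onco culture was lost under 5 of 10 alternatives, among them TPM without mitochondrial genes (limma adjusted p = 0.0514) and all 16 libraries fitted together (limma adjusted p = 0.0508), with an adjusted p of at most 0.212. Epithelial markers summed to 6673 and 7549 TPM in A549 and 4331 and 4570 TPM in H2023 in Onco culture. EPCAM (9.40 and 7.94 against 51.02 and 28.06 TPM) and KRT19 (46.81 and 101.25 against 406.22 and 441.14 TPM) were higher in H2023. By limma 2 of the 7 were higher in H2023 and 3 lower. The part of these markers was not tested.

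The order of the groups by mean showed how far each member separated them. For ITGA4, H2023 wild type in normal culture was highest (12.8 ± 2.92 TPM, SD, n = 2). Both A549 labelled-knockout groups followed at 8.57 ± 1.34 and 8.25 ± 1.16 TPM (SD, n = 2) and overlapped each other. H2023 wild type in Onco culture stood at 4.49 ± 0.608 TPM (SD, n = 2), and the other 4 groups were below 1 TPM. For ITGAV the top 6 groups, from 134.2 to 78.6 TPM, each overlapped the next, and the A549 wild-type groups stood below them at 45.2 and 44.6 TPM. For ITGA6 the A549 Onco groups were highest, at 62.4 and 47.2 TPM, and overlapped. Genes most like a member were sought by Pearson's r over the 8 group means, among 12535 genes with a group mean of at least 5 TPM. ITGA4 was nearest to PRKRA (r = 0.957), PPP1R7 (r = 0.955) and HDLBP (r = 0.932), all on chromosome 2. ITGA6 was nearest to APIP (r = 0.990) and FBXO3 (r = 0.985) on chromosome 11 and to PCDHA12 (r = 0.969). ITGA2 was nearest to SMARCA2 (r = 0.948), ITPRID2 (r = 0.947) and AHI1 (r = 0.943). These r values describe 8 points that share libraries within each group and carry no test.

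Among 13 other integrin subunits in the tables (of 16 listed), limma called 1 higher in A549 normal culture and 1 lower in A549 Onco culture. Over all genes the shares called higher and lower were 4.54% and 6.28% in normal culture, then 6.04% and 7.2% in Onco culture. The first was ITGB3, the other classical partner of ITGAV, at 0.67 and 0.62 TPM in wild type and 26.58 and 13.26 TPM in labelled knockout (log2 fold change 3.59, SE 0.34, adjusted p = 0.0102). In A549 Onco culture ITGB3 was at 0.37 and 2.05 against 17.45 and 5.96 TPM, without overlap, and missed the threshold (limma adjusted p = 0.0528). In H2023 it stayed between 0.11 and 0.73 TPM. The second was ITGA1, a collagen receptor subunit, at 15.71 and 10.10 against 3.62 and 1.52 TPM in A549 Onco culture (limma adjusted p = 0.0272). ITGA7, a laminin receptor subunit, was at 3.39 and 4.15 against 0.67 and 1.64 TPM there (limma adjusted p = 0.0509). The authors' deposited table for A549 normal culture has ITGB3 and ITGAX higher and ITGB2 lower. Their deposited table for A549 Onco culture has ITGB3 higher and 5 lower, namely ITGA1, ITGA7, ITGA10, ITGA11 and ITGAL. Those tables have 11.2% of genes higher and 10.9% lower in normal culture, then 9.29% and 11.4% in Onco culture. In H2023 limma called 0 of the 13 in both cultures. At an unadjusted p under 0.05 it had 2 and 1 higher, where 18.2% and 15.5% of all genes passed in either direction. The authors' deposited tables have 1 higher in each culture, where 3.84% and 2.22% of genes were called higher. The median log2 fold changes of the 13 were -0.04 (normal) and -0.28 (Onco) in A549, against -0.03 and 0.03 over all genes. In H2023 they were 0.16 and 0.17, against 0.01 and 0.06.

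Of 24 integrin ligands measured (of 25 listed), 9 were higher and 2 lower in A549 labelled knockout in normal culture, and 11 were higher and 4 lower in Onco culture, all by limma. Over all genes 4.54% were higher and 6.28% lower in normal culture, and 6.04% and 7.2% in Onco culture. The authors' deposited tables have 12 ligands higher and 3 lower, then 12 higher and 4 lower. Those tables call 11.2% of genes higher and 10.9% lower, then 9.29% and 11.4%. The list medians were 0.40 and 0.55 on the log2 scale, against -0.03 and 0.03 over all genes. COL6A2, a collagen VI chain, was at 2.57 and 2.55 against 29.25 and 26.20 TPM in normal culture (log2 fold change 3.01, limma adjusted p = 0.00437). COL6A1, its partner chain, was at 5.10 and 4.85 against 32.71 and 35.07 TPM (2.55, limma adjusted p = 0.00437). LAMA3, the alpha chain of laminin-332, the ligand of ITGA3 and ITGA6 receptors, was at 10.30 and 8.78 against 42.44 and 43.18 TPM (2.06, limma adjusted p = 0.00518). All 3 were also higher in A549 Onco culture, with log2 fold changes of 3.15, 2.23 and 1.44 (limma adjusted p = 0.00663, 0.00298 and 0.0115). In H2023 limma called 0 of 24 in both cultures, with 5 higher and 5 lower, then 6 higher and 2 lower, at an unadjusted p under 0.05, which 18.2% and 15.5% of all genes passed. In the authors' deposited tables the calls were 2 higher and 6 lower, then 5 higher and 2 lower. Their shares of genes were 3.84% higher and 6.97% lower, then 2.22% and 2.85%.

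Of 25 adaptors and signalling partners at the integrin tail, limma called 2 higher and 3 lower in A549 normal culture and 5 higher and 1 lower in A549 Onco culture. The all-gene shares were 4.54% higher and 6.28% lower, then 6.04% and 7.2%. The authors' deposited tables have 10 adaptors higher and 2 lower, then 8 higher and 3 lower. Those tables call 11.2% of genes higher and 10.9% lower, then 9.29% and 11.4%. FERMT1, a kindlin, was at 25.10 and 23.88 against 12.16 and 11.34 TPM in normal culture (limma adjusted p = 0.0155). TNS1, a tensin, was at 1.55 and 1.65 against 6.16 and 7.95 TPM there (log2 fold change 1.62, limma adjusted p = 0.0164). TNS3, another tensin, was at 29.70 and 34.44 against 64.68 and 62.17 TPM in Onco culture (0.97, limma adjusted p = 0.0101). In H2023 limma called none, with 5 higher and 1 lower in each culture at an unadjusted p under 0.05. That is 6 of 25 in each culture, where 18.2% and 15.5% of all genes passed. The authors' deposited tables have 5 higher and 1 lower (normal) and 1 higher (Onco). Their shares of genes were 3.84% higher and 6.97% lower, then 2.22% and 2.85%. In Onco against normal culture 15 and 11 of 25 were lower in A549 wild type and labelled knockout, and 17 and 18 of 25 in H2023. Over all genes 21.6%, 9.87%, 17.4% and 19.2% were called lower. The adaptors higher were 3, 2, 0 and 0.

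Of 13 hemidesmosome components and lateral partners, limma called 2 higher in A549 normal culture, and 2 higher and 1 lower in A549 Onco culture. Of all genes it called 4.54% higher and 6.28% lower, then 6.04% and 7.2%. The authors' deposited tables have 5 higher in normal culture, and 3 higher and 3 lower in Onco culture. Those tables call 11.2% of genes higher and 10.9% lower, then 9.29% and 11.4%. CAV1, the caveolar coat protein, was at 24.03 and 30.10 against 81.92 and 87.77 TPM in A549 Onco culture (log2 fold change 1.62, limma adjusted p = 0.00461). PLAUR, the urokinase receptor, which binds integrins laterally, was at 75.47 and 83.52 against 171.41 and 203.80 TPM (1.22, limma adjusted p = 0.00636). CD82, a tetraspanin, was at 20.07 and 18.07 against 7.28 and 8.49 TPM (-1.18, limma adjusted p = 0.0122). In H2023 limma called none, with 5 higher and 1 lower, then 6 higher and 0 lower, at an unadjusted p under 0.05, a level that 18.2% and 15.5% of all genes passed. In the authors' deposited tables the calls were 4 higher and 1 lower, then 2 higher. Their shares of genes were 3.84% higher and 6.97% lower, then 2.22% and 2.85%.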

How the data were processed

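The authors deposited 4 tables, 1 per line and culture, each with 4 libraries made with a stranded TruSeq mRNA kit, per the labels' protocols. HISAT2, StringTie and the build GRCh38 are named without roles in the submitters' processing notes, and the counting program and annotation are not given in the sources used here. Per the file headers, each table holds TPM for each library and the authors' mean normalized count (a signal over 4 libraries), log2 fold change with its standard error, test statistic (a score), p-value and adjusted p-value. The deposited statistic has the opposite sign to the deposited fold change in all 18227 genes, so directions follow the fold change. TPM keeps no depth, so the depth of a library is unknown, and the test for raw counts was not used.

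Each of 119 identifiers in several rows had identical values, and 1 row was kept. The test was limma 3.58.1 in R 4.3.3, run on log2(TPM + 1) and letting the variance follow the mean, two-sided, with Benjamini-Hochberg adjustment over 18227 genes and no filter. Knockout contrasts used the 4 libraries of a table, culture contrasts the 8 of a line and line contrasts the 8 wild-type libraries. Differences between contrasts used the authors' fold changes and standard errors with a normal distribution. The test was checked on simulated data. The members and the gene lists were chosen with earlier results of these data known. All 10 members are named in every comparison, with up to 3 genes per other list by the smallest p in a knockout contrast and the 3 genes most like the 3 members with the widest range. Overlapping exons of other genes were found for ITGA5, ITGA6, ITGAV and ITGB1 on the opposite strand, and the strand setting of the counting is not given in the sources used here. Same-numbered libraries were compared for pairing, and the numbers were not taken as pairs. Alternatives were a pseudocount of 0.1 TPM, a filter at a mean of 1 TPM, median centring, TPM without mitochondrial genes, a fit over all 16 libraries, a replicate block, the authors' results and leaving out each library.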

Additional observations from a re-analysis of the deposited data

Results flagged for a closer look

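The difference between labelled knockout and wild type differed between the lines or between the cultures for 7 of the 10 subunits, by a test on the authors' deposited fold changes with adjustment over all genes. Of all genes, 15.3% differed between lines in normal culture and 12.9% in Onco culture. Between cultures, 8.31% differed in A549 and 0.39% in H2023. The share of all genes that differed in any of these tests was not computed, so the pooled 7 has no background. Values are on the log2 scale, with A549 subtracted from H2023 for the lines.

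ITGA4 was singled out in both cultures, by -8.62 (normal) and -11.13 (Onco), because its fold change has opposite signs in the 2 lines. ITGAV differed by -2.23 (normal) and -1.14 (Onco) between lines and by -0.69 between the cultures of A549 (Onco minus normal). In H2023 Onco culture ITGAV overlapped between wild type and labelled knockout and its estimate turned to 0.039 with 1 library left out, and the -1.14 and the -0.69 were not called by a limma interaction, with or without a replicate block. ITGA5 differed by -1.42 between lines in normal culture and by -1.08 between the cultures of A549. ITGA2 differed by -1.04 between lines in normal culture, which neither limma interaction called. ITGA6 differed by 1.21 between lines in normal culture and by 1.03 between the cultures of A549. In Onco culture the lines differed by 1.04 for ITGB4, which neither limma interaction called, and by -0.93 for ITGB5. ITGA4, ITGA6 and ITGAV lie in the stretch of chromosome 2 whose genes shifted up in A549 and down in H2023. In H2023 the genes of chromosome 2 below 90 Mb were also low, with medians of -0.16 and -0.14. The part of these shifts in the differences was not tested.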

How the results depend on the processing

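Of 762 values for single subunits under the alternatives, 634 kept direction and side of the threshold, 86 lost the threshold, 23 gained it and 19 turned in sign. Every value that turned in sign belonged to a subunit that limma had not called in that knockout contrast. Uncalled subunits entered these counts for the knockout contrasts only. For the culture and line contrasts and the differences between contrasts, only called subunits were included. Whether the uncalled ones there kept their sign was not tested. ITGB4 turned in A549 normal culture (0.0094 with median centring, 0.15 in the authors' deposited table, range -0.52 to 0.44 with 1 library left out) and in A549 Onco culture (-0.24 to 0.19). ITGB5 ranged from -0.30 to 0.79 in A549 normal culture. With 1 library left out of H2023 normal culture, ITGA2 ranged from -0.14 to 0.0025, ITGA5 from -0.087 to 0.32 and ITGB1 from -0.0085 to 0.28. In H2023 Onco culture ITGA5 was -0.039 with centring and -0.083 in the authors' deposited table (-0.16 to 0.26), ITGAV ranged from -0.66 to 0.039, and ITGB5 was -0.011 without mitochondrial genes and -0.078 with centring (-0.041 to 0.062).

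Counts of calls moved more. A fit over all 16 libraries raised the genes called from 1971 to 3233 and from 2413 to 3780 in the A549 knockout contrasts, and the authors' deposited tables have 3639 and 3628, with 6 subunits in place of 3 in normal culture. In H2023 normal culture 0 genes and 0 subunits became 481 and 2 with the filter, 322 and 1 with centring, 546 and 1 with 16 libraries, and 1665 and 4 in the authors' table. In H2023 Onco culture 0 genes became 6, 1, 1014 and 816 in that order, with 1 subunit for 16 libraries and 2 for the authors. Leaving out 1 library, where the lone library of a group is assumed to vary like the others, gave 0 to 0 genes and 0 to 0 subunits in A549 normal culture, 0 to 38 and 0 to 0 in A549 Onco culture, and 0 of both in H2023. For the culture contrasts it gave 4924 to 6105 genes and 0 to 4 subunits in A549 wild type (7392 and 4 with all), 2010 to 2436 and 1 to 4 in A549 labelled knockout (3784 and 2), 1697 to 2630 and 3 to 5 in H2023 wild type (3901 and 6), and 2090 to 3171 and 2 to 3 in H2023 labelled knockout (4895 and 3). For the line contrasts it gave 3946 to 4159 genes and 4 to 5 subunits in normal culture (6457 and 6) and 5250 to 6162 and 5 to 7 in Onco culture (7716 and 8). Taking mitochondrial genes out left 2285 genes and 3 subunits in the H2023 wild-type culture contrast. A limma interaction called 0 of 3 subunits between A549 cultures, where genes called went from 1514 to 1212. It called 0 genes in place of 71 between H2023 cultures. Between lines in Onco culture it called 2 of 4 subunits, where genes called went from 2344 to 1795. Fewer libraries enter the fits with 1 left out; otherwise the cause was not tested.

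Deviations of same-numbered libraries had correlations of 0.03 to 0.46 in the knockout contrasts, 0.096 to 0.16 in the culture contrasts and -0.03 and 0.05 in the line contrasts. The labels do not say what a number shares and each contrast has 2 pairs, so the numbers were not taken as pairs, and whether they pair the libraries was not settled. With the replicate block, limma called 4 subunits in A549 normal culture, where ITGA6 joined (adjusted p = 0.0359), 5 in A549 Onco culture and 0 in H2023, and 4 in place of 2 in the A549 labelled-knockout culture contrast. Over all genes the block gave 2109 calls in A549 normal culture, 2774 in A549 Onco culture, 0 in H2023 and 3940 in that culture contrast. The interaction with the replicate block called 2 subunits between A549 cultures, 0 genes between H2023 cultures, 4 subunits between lines in normal culture and 2 in Onco culture. Genes called by it were 1264 between A549 cultures, 1982 between lines in normal culture and 1800 in Onco culture.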
